A study of Mus musculus with 26 samples.

Results

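The expression of 10 contractile and pericyte genes (Acta2, Tagln, Cnn1, Myh11, Myl9, Actg2, Tpm1, Des, Rgs5 and Mcam) was examined across cultured osteoblasts from the mouse femur. The genes were taken by symbol from the 26264 symbols of the deposited count table, and all 10 were found and passed the filter on low counts, which kept 16566 genes. RNA was sequenced in 18 libraries, 3 in each of 6 groups; the 8 chromatin libraries of the series were not analysed here. The groups were CON-OLD-iBP, old control cells with iBP, an agent named in the title by this code alone; CKO-OLD, old cells with a conditional knockout of the CxxC domain of Kdm2b; OLD, untreated cells of C57BL/6J mice of 18 months; CKO-YOUNG, young cells with the same knockout; CON-YOUNG, its young control; and YOUNG, untreated cells of C57BL/6J mice of 3 months. The knockout cells came from Kdm2b fl/fl Ocn-cre Ai14 mice, and their controls carried Ocn-cre and Ai14 without the floxed gene. The labels do not give the age in months of the CKO and CON groups. Ocn-cre acts from the promoter of osteocalcin, a gene of mature osteoblasts, so less mature cells in such a culture can keep the intact gene, and Ai14 is a red fluorescent reporter switched on by Cre. No untreated old group of the Ocn-cre Ai14 line was analysed here, so in comparisons with OLD the mouse line cannot be told apart from the knockout or from iBP. Whether replicates are separate animals or cultures is not labelled, and p-values therefore reflect library-to-library spread that may be technical.

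Smooth muscle cells shorten when myosin pulls on actin filaments, and the genes of that machinery are often switched on together by serum response factor with its coactivators of the myocardin family, which bind a promoter element called the CArG box. Cultured stromal cells, osteoblast precursors among them, also use part of this set in their stress fibres. Pericytes, the cells that wrap capillaries, share several of these genes, and skeletal precursors in bone marrow overlap with them in markers such as Mcam. Kdm2b is the subunit that brings the Polycomb complex PRC1.1 to unmethylated CpG islands through its CxxC domain.

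The promoters of Acta2 and Myl9 are shown because they hold the elements found in these genes. RefSeq promoter windows of the GRCm38.p6 build were matched for 7 of the 10 genes, not for Tagln, Myh11 or Actg2. Each stretch below is the 250 bases before the annotated start, read 5' to 3' on the strand of the gene. Capitals mark a CArG box, whose 6 core bases are A or T, or a match with at most 1 G or C in that core. Acta2 lies at chr19:34255374-34255623 on the minus strand, and Myl9 at chr2:156775214-156775463 on the plus strand.
Acta2 promoter: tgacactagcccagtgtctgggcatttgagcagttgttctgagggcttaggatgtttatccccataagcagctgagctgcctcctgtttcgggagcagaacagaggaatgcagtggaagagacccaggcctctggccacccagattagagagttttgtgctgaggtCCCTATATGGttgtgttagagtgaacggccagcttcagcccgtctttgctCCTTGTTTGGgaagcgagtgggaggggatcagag
Myl9 promoter: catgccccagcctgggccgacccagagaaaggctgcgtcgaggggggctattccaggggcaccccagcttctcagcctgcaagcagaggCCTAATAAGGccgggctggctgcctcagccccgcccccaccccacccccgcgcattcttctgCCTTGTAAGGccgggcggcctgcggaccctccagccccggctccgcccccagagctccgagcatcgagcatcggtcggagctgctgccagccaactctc
The Acta2 elements, CCCTATATGG and CCTTGTTTGG, began 84 and 34 bases before the start, and each had 1 G or C in its core. Myl9 had the CArG box CCTAATAAGG at 161 bases and CCTTGTAAGG, with 1 G or C, at 99 bases before the start. The promoter stretches of Cnn1, Tpm1, Des, Rgs5 and Mcam held neither form. Among 32851 windows of 300 bases, 1.629% held a CArG box and 9.984% held one allowing 1 G or C, a pattern that reads the same on both strands. Such a match describes letters in a window and does not show binding.

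Depth and library quality touch all the values below. The libraries held 46272076 to 77698781 counts, so that 1 count was worth 0.0127 to 0.0203 CPM (counts scaled to 1000000 with TMM library sizes). The nuclear RNA Malat1 took 0.0296% to 0.0435% of counts in set 1 (YOUNG 1 and 2, OLD 1 and 3) and set 2 (the libraries numbered 1 and 2 of CKO-YOUNG and CON-YOUNG), against 0.0957% to 0.223% in the other 10 libraries (set 3). These sets are not groups of the study, but sets 1 and 2 were told apart by mouse line and not by Malat1. Every CKO-OLD and CON-OLD-iBP library was in set 3, and YOUNG and CON-YOUNG shared only set 3, through YOUNG 3 and CON-YOUNG 3. Xist, made by the inactive X chromosome of female cells, stood at 372 to 481 CPM in the 4 libraries of set 1 and in CKO-YOUNG 3 and at most 0.404 CPM elsewhere, and CKO-YOUNG 3 alone held it together with Ddx3y of the Y chromosome, at 21.3 CPM. OLD 1 and OLD 3 were the most alike pair (Spearman 0.995 across genes), and the median squared difference between them was 6.26 times that expected from counting, compared with 16.1 to 179 for other pairs, so they were kept as 2 libraries. Summed Kdm2b counts per library, 16.2 to 58.2 CPM, cannot check the loss of a single domain. The 12 osteoblast markers made up 1.65% to 6.21% of counts, but osteocalcin itself (Bglap) stood at 0 to 0.306 CPM in CKO-YOUNG and at 0.15, 0 and 9.89 CPM in CON-YOUNG, against 25.2 to 83.6 CPM in the 12 libraries of the other groups.

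The 10 genes together took 0.247% to 0.312% of all counts in CKO-OLD and 0.888% to 0.971% in CKO-YOUNG. They took 0.283% to 0.333% in OLD, and 0.502%, 0.585% and 0.108% in YOUNG 1, 2 and 3. In CON-OLD-iBP 1, 2 and 3 they took 0.0865%, 0.286% and 0.26%, and in CON-YOUNG 1, 2 and 3 they took 0.732%, 0.895% and 0.338%. The 3 young groups thus held both the highest totals and, in YOUNG 3, nearly the lowest. YOUNG 3 and CON-YOUNG 3 were the lowest library of their group for all 10 genes; over all tested genes, each was the lowest for 41.3% and 39.7% of them. In bulk RNA, fewer cells of a type and less RNA per cell cannot be told apart.

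**Figure D1:**
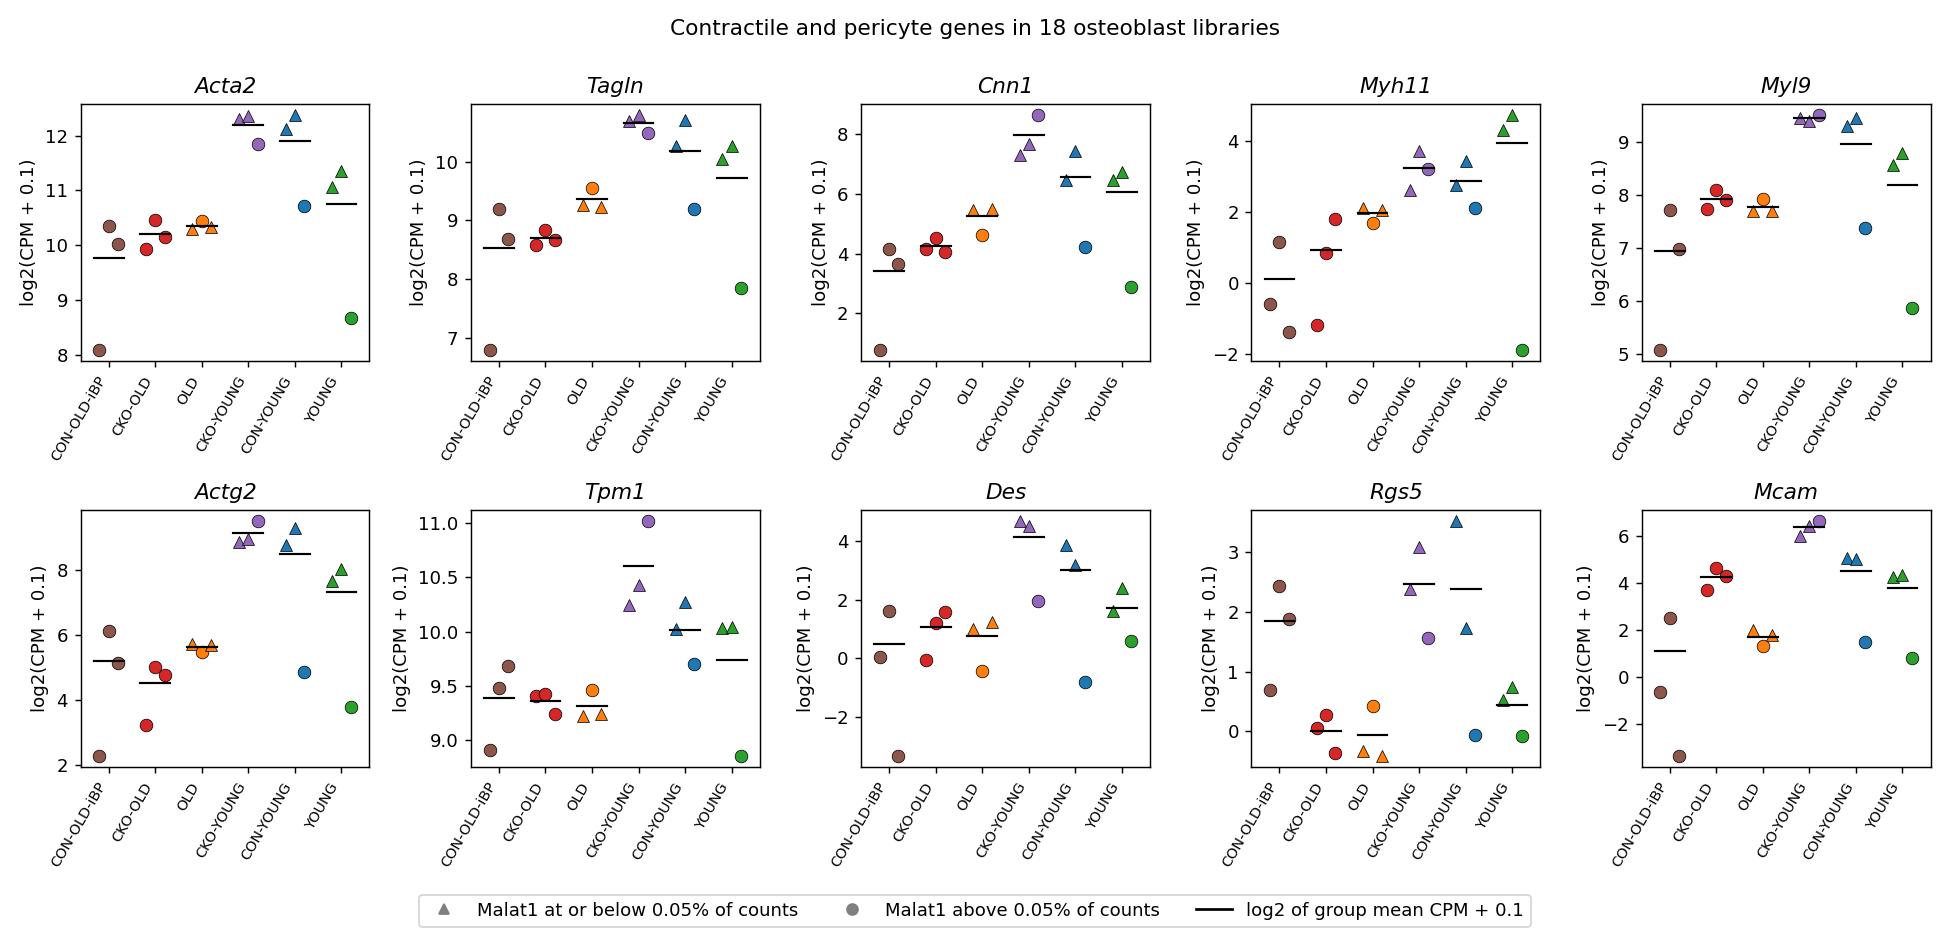
Level of each of the 10 genes in each of the 18 libraries, as log2(CPM + 0.1), by group; triangles are libraries with Malat1 at or below 0.05% of counts, circles those above it, and the line is the group mean CPM on the same scale. For Acta2, all CKO-OLD points (980 to 1410 CPM) lie below all CKO-YOUNG points (3697 to 5268 CPM), and YOUNG 3 and CON-YOUNG 3 lie below the other libraries of their groups in all 10 panels.

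Acta2 encodes smooth muscle alpha actin, a main building block of the contractile filament and of stress fibres. It stood at 274, 1311 and 1036 CPM in CON-OLD-iBP 1, 2 and 3, at 980, 1410 and 1136 CPM in CKO-OLD and at 1253, 1391 and 1290 CPM in OLD. Young cells held 5048, 5268 and 3697 CPM in CKO-YOUNG, 4436, 5283 and 1689 CPM in CON-YOUNG and 2132, 2616 and 408 CPM in YOUNG. All 3 old groups overlapped one another, CKO-YOUNG and CON-YOUNG overlapped, and YOUNG 3 lay among the old libraries. Actg2, the gamma actin of visceral smooth muscle, had 4.75, 68.5 and 35.0 CPM in CON-OLD-iBP, 9.17, 31.8 and 26.8 CPM in CKO-OLD and 52.8, 44.4 and 51.1 CPM in OLD. It had 467, 490 and 721 CPM in CKO-YOUNG, 433, 621 and 28.6 CPM in CON-YOUNG and 201, 263 and 13.4 CPM in YOUNG. The spread between groups was wider for Actg2 than for Acta2: its group means lay between 22.6 CPM in CKO-OLD and 559 CPM in CKO-YOUNG. Acta2 and Actg2 have closely similar coding sequences, and the counting program, its annotation and its use of strand are not given in the sources at hand, so reads shared between actin genes remain uncertain, as do reads of overlapping or antisense genes.

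Among the proteins that bind along the actin filament, Tagln encodes transgelin, an early marker of smooth muscle. Its levels were 111, 589 and 411 CPM in CON-OLD-iBP 1, 2 and 3, 383, 458 and 405 CPM in CKO-OLD and 612, 755 and 604 CPM in OLD. In the young groups they were 1655, 1776 and 1434 CPM in CKO-YOUNG, 1229, 1689 and 588 CPM in CON-YOUNG and 1064, 1236 and 229 CPM in YOUNG. CKO-OLD and CON-OLD-iBP each lay below OLD without overlap, and CKO-YOUNG overlapped CON-YOUNG. Cnn1 encodes calponin, which restrains the myosin motor on actin. It had 1.62, 17.7 and 12.5 CPM in CON-OLD-iBP, 17.6, 22.8 and 16.6 CPM in CKO-OLD and 44.4, 24.6 and 45.3 CPM in OLD. Young cells held 157, 205 and 399 CPM in CKO-YOUNG, 89.4, 175 and 18.4 CPM in CON-YOUNG and 88.4, 107 and 7.18 CPM in YOUNG. The order of the Cnn1 group means, highest first, was CKO-YOUNG, CON-YOUNG, YOUNG, OLD, CKO-OLD and CON-OLD-iBP, and of these neighbours only OLD and CKO-OLD did not overlap. Tpm1, a tropomyosin made in muscle and non-muscle forms, spread least: it had 481, 713 and 822 CPM in CON-OLD-iBP, 679, 689 and 605 CPM in CKO-OLD and 598, 706 and 604 CPM in OLD. It reached 1211, 1380 and 2070 CPM in CKO-YOUNG, 1042, 1234 and 831 CPM in CON-YOUNG and 1047, 1054 and 464 CPM in YOUNG. CKO-OLD and OLD were level for Tpm1, with means of 657 ± 46.0 and 636 ± 60.5 CPM (SD, n = 3 each).

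The myosin genes differed in level and in pattern. Myh11, the heavy chain of smooth muscle myosin and the most restricted marker of that lineage in the set, stood at 0.566, 2.13 and 0.284 CPM in CON-OLD-iBP, 0.342, 1.72 and 3.39 CPM in CKO-OLD and 4.23, 3.17 and 4.09 CPM in OLD. In young cells the levels were 6.07, 13.1 and 9.25 CPM in CKO-YOUNG, 6.75, 10.8 and 4.25 CPM in CON-YOUNG and 19.9, 26.4 and 0.174 CPM in YOUNG, the last of these resting on 9 counts. Of the 10 genes, Myh11 was the only one with its highest group mean in YOUNG, at 15.5 ± 13.7 CPM (SD, n = 3), a mean set by YOUNG 1 and 2. Myl9, a regulatory light chain found in smooth muscle and stress fibres, had 33.8, 211 and 125 CPM in CON-OLD-iBP, 214, 272 and 239 CPM in CKO-OLD and 208, 241 and 208 CPM in OLD. It had 697, 676 and 724 CPM in CKO-YOUNG, 626, 700 and 165 CPM in CON-YOUNG and 378, 441 and 57.9 CPM in YOUNG. The CKO-YOUNG libraries were close together for Myl9 (699 ± 24.4 CPM, SD, n = 3), and CKO-YOUNG 3 was the highest of them although it differed from the other 2 in Malat1 and Xist.

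Des encodes desmin, the intermediate filament protein of muscle cells and of some pericytes. It was low throughout: 0.929, 3.01 and 0 CPM in CON-OLD-iBP 1, 2 and 3, 0.865, 2.21 and 2.91 CPM in CKO-OLD, and 1.88, 0.637 and 2.25 CPM in OLD. It had 25.6, 23.0 and 3.84 CPM in CKO-YOUNG, 14.6, 9.01 and 0.466 CPM in CON-YOUNG and 2.95, 5.19 and 1.41 CPM in YOUNG. In the CKO-YOUNG and CON-YOUNG groups, the libraries of set 2 held the high values and the library of set 3 a low one. No count of Des or of Mcam was found in CON-OLD-iBP 3, where 3 counts would be 0.0608 CPM. That library held 112 tested genes at 0 that had at least 25 counts in both other libraries of its group, against 6 to 83 such genes in the other libraries.

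The 2 genes used most as pericyte markers behaved unlike each other. Rgs5, a regulator of G protein signalling enriched in pericytes, had 1.52, 5.30 and 3.59 CPM in CON-OLD-iBP 1, 2 and 3, 0.945, 1.10 and 0.679 CPM in CKO-OLD and 0.695, 1.24 and 0.657 CPM in OLD. It had 5.12, 8.32 and 2.86 CPM in CKO-YOUNG, 11.3, 3.20 and 0.861 CPM in CON-YOUNG and 1.33, 1.58 and 0.850 CPM in YOUNG. CON-OLD-iBP lay above both other old groups without overlap for Rgs5, while YOUNG, CKO-OLD and OLD overlapped at about 1 CPM. Mcam, the adhesion molecule CD146 of pericytes, endothelium and marrow stromal cells, had 0.546, 5.69 and 0 CPM in CON-OLD-iBP, 13.1, 25.04 and 19.9 CPM in CKO-OLD and 3.88, 2.39 and 3.36 CPM in OLD. It had 64.0, 86.1 and 98.5 CPM in CKO-YOUNG, 33.2, 32.3 and 2.76 CPM in CON-YOUNG and 19.1, 20.4 and 1.68 CPM in YOUNG. Mcam was the only one of the 10 genes with no overlap between knockout and comparison group at both ages: every CKO-OLD library exceeded every OLD library, and every CKO-YOUNG library exceeded every CON-YOUNG library. Of all tested genes, 2.64% had no overlap at both ages.

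The test was the quasi-likelihood F test of edgeR over all 18 libraries, adjusted by Benjamini-Hochberg over 16566 genes, and a gene was called at an adjusted p under 0.05. Fold changes are log2, with the first-named group over the second, and ± gives the standard error. None of the 10 genes was called in any of the 7 comparisons of groups, which are taken in turn below with the share of all tested genes called.

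Old and young knockout cells showed the widest separation. All 10 genes were lower in CKO-OLD than in CKO-YOUNG without overlap of the groups, as were 15.2% of all tested genes. The median fold change of the 10 was -2.24, against -0.00466 over all tested genes. The actins had fold changes of -4.63 ± 1.18 for Actg2 and -1.99 ± 0.61 for Acta2 (adjusted p = 0.0626 and 0.0854). Cnn1 had -3.74 ± 0.99, Tagln -1.96 ± 0.58 and Tpm1 -1.24 ± 0.30 (adjusted p = 0.0648, 0.0799 and 0.0587). Rgs5 had -2.58 ± 0.75 (adjusted p = 0.0769), and the other 4 genes, Des, Myh11, Mcam and Myl9, had fold changes of -3.13, -2.38, -2.10 and -1.53 with adjusted p of 0.162 to 0.282. So edgeR called 0 of the 10, against 0.7% of all tested genes, a share that was 0 without any one of CKO-OLD 1, 2 or 3 or CKO-YOUNG 1 or 2 and 16.2% without CKO-YOUNG 3. An unadjusted p under 0.05 was found for 8 of the 10 and for 24.5% of all tested genes.

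The call in CKO-OLD against CKO-YOUNG depended on the fit. DESeq2 called 6 of the 10 genes lower, Acta2, Actg2, Cnn1, Rgs5, Tagln and Tpm1, with adjusted p of 0.000566 to 0.0125, and it called 5.7% of all genes with an adjusted p lower. A fit of the 6 knockout libraries alone called 8 lower, all but Des and Myh11, against 2.06% of all tested genes. When CKO-YOUNG 3 was left out, edgeR over all groups called the same 6 as DESeq2, against 8.27% of all tested genes called lower. Within set 3, where CKO-YOUNG 3 is the only young knockout library, all 10 genes were lower in each CKO-OLD library than in CKO-YOUNG 3, as were 33.2% of all tested genes. Xist stood at 372 CPM in CKO-YOUNG 3 and at most 0.280 CPM in CKO-OLD. Age and this difference cannot be told apart within set 3. With a term for library set none was called, and the fold changes lay between -4.12 for Actg2 and -0.43 for Des. Because CKO-OLD lay wholly in set 3, age and library set cannot be told apart for CKO-YOUNG 1 and 2.

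**Figure D2:**
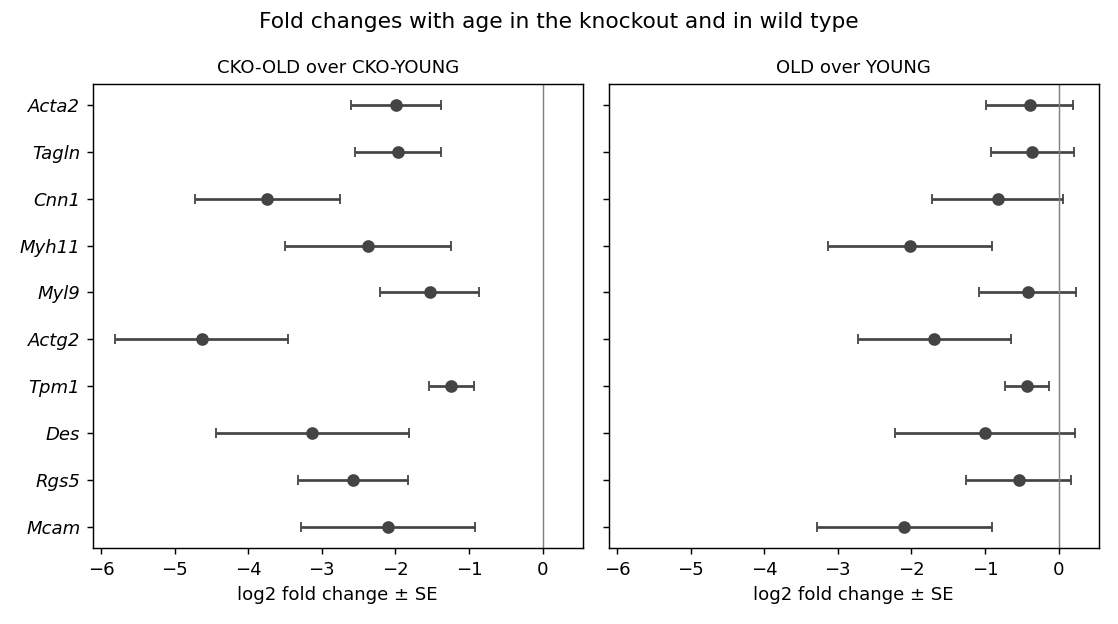
Log2 fold change and standard error of each gene with age, CKO-OLD over CKO-YOUNG on the left and OLD over YOUNG on the right, 3 libraries a group, from edgeR; the vertical line marks no change. All 10 estimates are below 0 in both panels, between -4.63 and -1.24 on the left and between -2.10 and -0.36 on the right.

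Markers of osteoblasts and of other cells also differed between these groups. Of the 12 osteoblast markers, 6 had positive and 6 negative fold changes, and 2 were called higher, Spp1, which encodes osteopontin (11277 ± 835 CPM in CKO-OLD and 1895 ± 434 CPM in CKO-YOUNG, SD, n = 3 each; edgeR adjusted p = 0.0253), and Bglap (58.8 ± 21.7 and 0.153 ± 0.153 CPM; adjusted p = 0.0389). Both calls were lost without any one of CKO-OLD 1, 2 or 3 or CKO-YOUNG 1 or 2, with adjusted p of 0.0836 to 0.179, and with a term for library set. Macrophage marker transcripts (16 genes) summed to 0.145% to 0.63% of counts in CKO-OLD and 0.0143% to 0.104% in CKO-YOUNG, and endothelial ones (13 genes, 3 to 5 at 0 in CKO-OLD and 1 to 7 in CKO-YOUNG) to 12.8 to 18.5 CPM and 11.1 to 11.9 CPM. Chondrocyte markers (8 genes, 0 or 1 at 0 in CKO-OLD and 1 or 2 in CKO-YOUNG) summed to 0.131%, 0.0423% and 1.09% of counts in CKO-OLD 1, 2 and 3. In CKO-YOUNG they summed to 0.0518% to 0.135%. Skeletal muscle markers (13 genes, 5 to 7 at 0 in CKO-OLD and 3 to 8 in CKO-YOUNG) reached 3.38 to 4.64 CPM and 4.73 to 9.44 CPM, and the adipocyte and marrow stroma list (8 genes, at most 1 at 0) 352 to 504 CPM and 698 to 956 CPM. The part of cell makeup in the fold changes of the 10 genes was not tested.

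In the aging experiment the same genes did not separate by age. None of the 10 had groups without overlap in OLD against YOUNG, where 11.4% of all tested genes did. All 10 fold changes were below 0, with a median of -0.68 against -0.03 over all tested genes. The lowest were -2.10 ± 1.19 for Mcam, -2.02 ± 1.11 for Myh11 and -1.69 ± 1.04 for Actg2, each with an adjusted p of 1. The percentage of all tested genes called was 0, and 0 of the 10 genes had an unadjusted p under 0.05, as 3.34% of all tested genes did. DESeq2 called 0 of the 10 as well, and 0.249% of all genes.

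The pooled age comparison joined opposite patterns. Within set 1, OLD 1 and 3 were below YOUNG 1 and 2 for all 10 genes, as for 28.3% of all tested genes. Within set 3, OLD 2 was above YOUNG 3 for 9 of the 10 and below it for Des, whereas OLD 2 was above YOUNG 3 for 47.7% of all tested genes. For Acta2 the set 1 values were 1253 and 1290 CPM in OLD and 2132 and 2616 CPM in YOUNG, and the set 3 values were 1391 CPM in OLD 2 and 408 CPM in YOUNG 3. With 2 libraries against 2, and 1 against 1, these orders carry no test. The sets of this experiment also differed in sex-linked RNA. In set 1, Xist was at 391 to 481 CPM and Ddx3y at 0. In OLD 2 and YOUNG 3, Xist was at 0.0707 and 0.251 CPM and Ddx3y at 36.2 and 70.4 CPM. Library set and this difference cannot be told apart here. YOUNG 3 also stood apart in markers of other cells. Its chondrocyte markers summed to 1.47% of counts, against 0.0262% and 0.00601% in YOUNG 1 and 2, and its macrophage markers to 0.353%, against 1.59% and 1.02%. In OLD the chondrocyte sums were 0.0722% to 0.112% and the macrophage sums 0.148% in OLD 2 and 1.13% in both OLD 1 and OLD 3. The part of these cells in the values of the 10 genes was not tested.

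The difference between the age effects was tested in the same fit, as the change with age in the knockout minus that in wild type. It was below 0 for all 10 genes, with a median of -1.60 against 0.01 over all tested genes, though for Mcam it was only -0.00392 ± 1.91. Cnn1 had the smallest unadjusted p (-2.92 ± 1.28, edgeR adjusted p = 0.392), followed by Actg2 at -2.94 ± 1.46 and Rgs5 at -2.04 ± 1.02. Neither edgeR nor DESeq2 called any of the 10, the edgeR share of all tested genes was 0 percent, and 1 of the 10 had an unadjusted p under 0.05, against 12% of all tested genes. DESeq2 called 1.7% of all genes here. The knockout line and the wild type are different mice, so line and knockout cannot be told apart here.

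In young cells, all 10 genes had positive fold changes in CKO-YOUNG over CON-YOUNG, with a median of 0.54 against -0.01 over all tested genes. None was called, against 0.127% of all tested genes (21 genes, and 0 with a replicate block); none had an unadjusted p under 0.05, against 5.48%, and DESeq2 called 0, against 1.43% of all genes. Mcam had the largest fold change, 1.86 ± 1.18 (82.9 ± 17.4 and 22.8 ± 17.3 CPM, SD, n = 3 each; edgeR adjusted p = 1), and was the only gene whose groups did not overlap, as for 8.51% of all tested genes. Cnn1 followed at 1.43 ± 0.90 and Des at 1.12 ± 1.22, while Rgs5, at 0.09 ± 0.70, had the smallest difference. In pairs of equal replicate number, Tagln, Cnn1, Tpm1, Des and Mcam were higher in CKO-YOUNG in all 3, which is 5 of the 10 against 13.5% of all tested genes. The labels do not tie equal numbers to a shared animal or culture.

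The size of the shift differed between library sets. Within set 2, Mcam and Des were higher in both CKO-YOUNG libraries than in both CON-YOUNG libraries, a count of 2 of the 10, against 21.4% of all tested genes. Within set 3, CKO-YOUNG 3 was above CON-YOUNG 3 for all 10 genes, as for 49.6% of all tested genes. The largest ratios in that pair were those of Mcam (98.5 and 2.76 CPM), Actg2 (721 and 28.6 CPM) and Cnn1 (399 and 18.4 CPM). Each side of the pair is a single library, and CKO-YOUNG 3 was the only library of these 2 groups with Xist. Chondrocyte markers summed to 0.0518% of counts in CKO-YOUNG 3 and 0.474% in CON-YOUNG 3, against 0.126% to 0.135% in CKO-YOUNG 1 and 2 and 0.057% to 0.0936% in CON-YOUNG 1 and 2. Of the 12 osteoblast markers, 11 had negative fold changes in CKO-YOUNG over CON-YOUNG and none was called. The part of cell makeup in these values was not tested.

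In old cells, CKO-OLD over OLD gave no common direction: 5 fold changes were positive and 5 negative, with a median of -0.06 against -0.01 over all tested genes. Tagln, Cnn1 and Actg2 were lower in CKO-OLD and Mcam was higher without overlap, 4 of 10 against 17.4% of all tested genes. Mcam had 2.59 ± 1.21 (19.3 ± 6.02 CPM in CKO-OLD and 3.21 ± 0.76 CPM in OLD, SD, n = 3 each; edgeR adjusted p = 0.612, unadjusted p = 0.0502). Actg2, Cnn1 and Tagln had -1.13 ± 1.03, -1.01 ± 0.89 and -0.66 ± 0.57. None of the 10 was called by edgeR, against 0.00604% of all tested genes, or by DESeq2, against 1.1%, and 0 had an unadjusted p under 0.05, against 8.16%. Within set 3, all CKO-OLD libraries were below OLD 2 for 5 of the 10 genes, against 23.2% of all tested genes. They were above it for 2, and the share of all tested genes in that direction was not computed. All 16 macrophage markers had negative fold changes in the same comparison, and their sums were 0.145% to 0.63% of counts in CKO-OLD and 0.148% to 1.13% in OLD; their part in the fold changes was not tested.

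Averaged over both ages, the knockout groups (CKO-YOUNG and CKO-OLD) were set against CON-YOUNG and OLD, a comparison chosen after the values were seen. OLD is of another mouse line, so line and knockout cannot be told apart in the old part of it. Mcam had 2.23 ± 0.84, with 51.1 ± 36.7 and 13.0 ± 15.3 CPM (SD, n = 6 each), an unadjusted p of 0.0189 and an edgeR adjusted p of 0.419. Of the other 9 genes, none had an absolute fold change above that of Des, 0.72 ± 0.86. None of the 10 was called, against 0.531% of all tested genes.

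**Figure D3:**
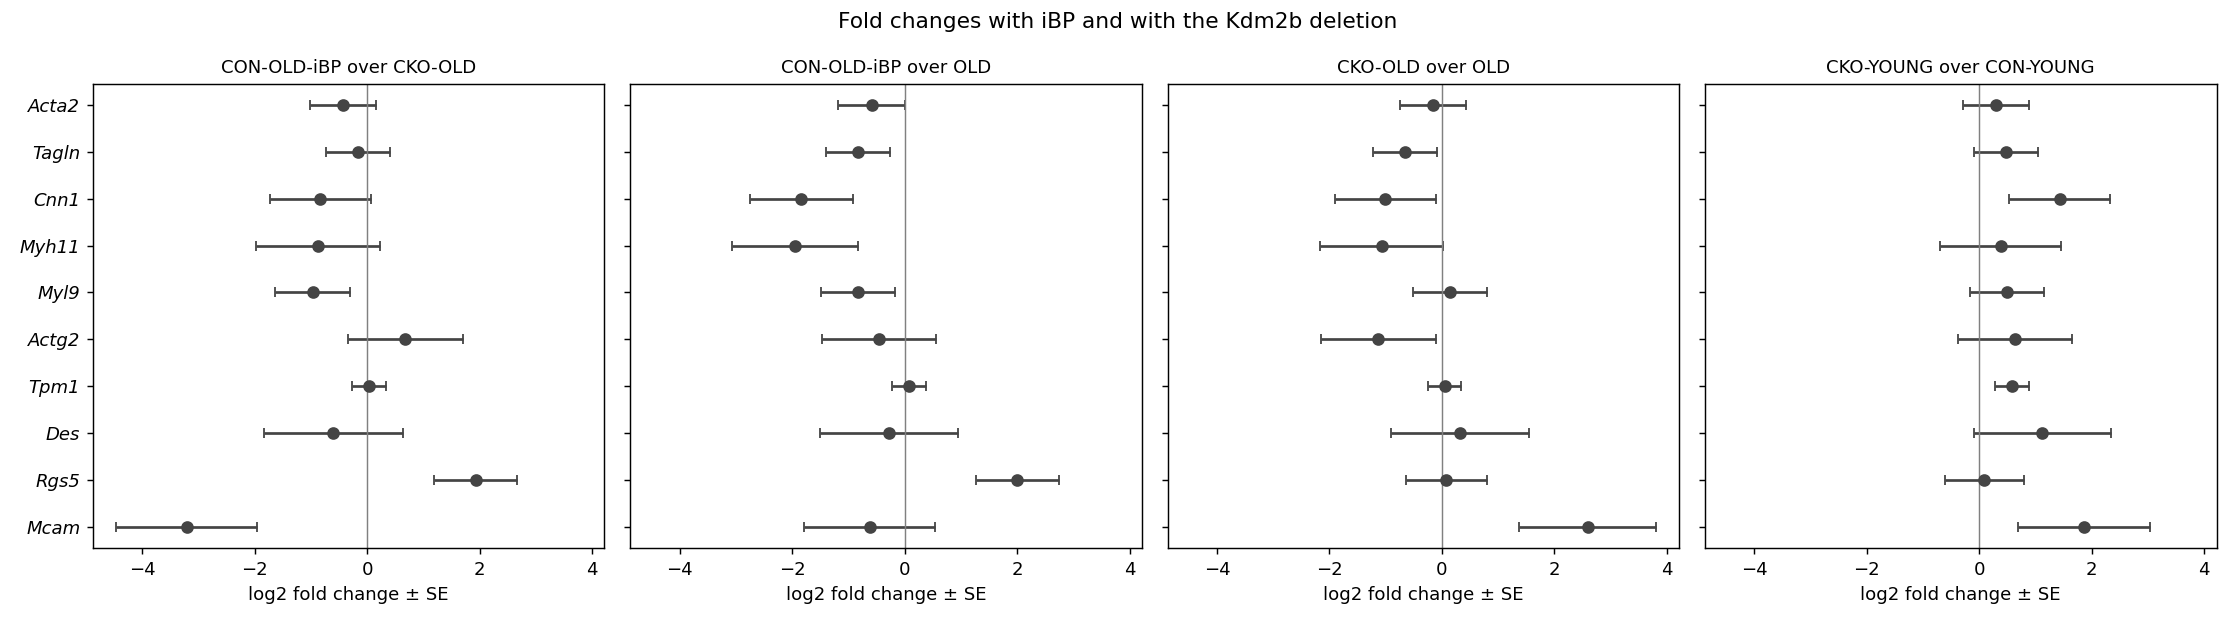
Log2 fold change and standard error of each gene from edgeR, in panels for CON-OLD-iBP over CKO-OLD, CON-OLD-iBP over OLD, CKO-OLD over OLD and CKO-YOUNG over CON-YOUNG, 3 libraries a group; the vertical line marks no change. Mcam lies at 2.59 in CKO-OLD over OLD, at 1.86 in CKO-YOUNG over CON-YOUNG and at -3.21 in CON-OLD-iBP over CKO-OLD. Rgs5 lies at 2.01 in CON-OLD-iBP over OLD and at 1.93 in CON-OLD-iBP over CKO-OLD.

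Old control cells given iBP were compared with both other old groups. Against OLD, 8 of the 10 fold changes were negative, with a median of -0.60 against 0.00131 over all tested genes. Tagln, Cnn1 and Myh11 were lower and Rgs5 higher in CON-OLD-iBP without overlap, 4 of 10 against 30.2% of all tested genes. Rgs5 had 2.01 ± 0.74 (3.47 ± 1.90 CPM in CON-OLD-iBP and 0.863 ± 0.325 CPM in OLD, SD, n = 3 each; edgeR adjusted p = 0.124), and DESeq2 called it, at 2.04 with an adjusted p of 0.0391, along with 13.6% of all genes. Myh11 and Cnn1 had -1.94 ± 1.12 and -1.84 ± 0.92 (adjusted p = 0.31 and 0.24). By edgeR 0 of the 10 were called, against 0.0241% of all tested genes, and 1, Rgs5, had an unadjusted p under 0.05, against 23.4%. Within set 3, all CON-OLD-iBP libraries were below OLD 2 for 5 of the 10 genes, against 27% of all tested genes. They were above it for Rgs5, and the share of all tested genes in that direction was not computed. All 16 macrophage markers had negative fold changes (median -3.68), with sums of 0.0514% to 0.102% of counts in CON-OLD-iBP and 0.148% to 1.13% in OLD. All 8 chondrocyte markers had positive ones (median 5.89). Their sums were 1.11%, 0.0783% and 0.149% of counts in CON-OLD-iBP 1, 2 and 3, and 0.0722% to 0.112% in OLD. In CON-OLD-iBP 3, 3 of the 8 were at 0. None of these markers was called, and the part of such cells in the values of the 10 genes was not tested.

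Against CKO-OLD, 7 of the 10 fold changes in CON-OLD-iBP were negative, with a median of -0.51 against -0.01 over all tested genes. Both groups lay in set 3. They differ in the knockout and in iBP together, so knockout and iBP cannot be told apart here. Mcam and Myl9 were lower and Rgs5 was higher without overlap, 3 of 10 against 30.5% of all tested genes. Mcam had -3.21 ± 1.25 (2.08 ± 3.14 and 19.3 ± 6.02 CPM, SD, n = 3 each; edgeR adjusted p = 0.182). It was called without CON-OLD-iBP 2, its highest library, at -6.16 with an adjusted p of 0.0403, where 1 of the remaining 2 libraries had no Mcam count and 3.14% of all tested genes were called. Rgs5 had 1.93 ± 0.74 (adjusted p = 0.175) and Myl9 -0.97 ± 0.66. None of the 10 was called by edgeR, against 1.29% of all tested genes (213 genes, and 2 to 521 without single libraries), or by DESeq2, against 9%, and Rgs5 and Mcam had an unadjusted p under 0.05, as did 19.6% of all tested genes. CON-OLD-iBP 1 was the lowest of its group for 7 of the 10 genes, against 28.7% of all tested genes. CON-OLD-iBP 2 was the highest for 9, against 35.7% of all tested genes. All 16 macrophage markers had negative fold changes here too (median -1.84), with sums of 0.0514% to 0.102% of counts in CON-OLD-iBP and 0.145% to 0.63% in CKO-OLD, and none was called. All 12 osteoblast markers were negative (median -0.74), and Pth1r, the parathyroid hormone receptor, was called lower (28.5 ± 12.2 and 157 ± 30.1 CPM, SD, n = 3 each; -2.46, edgeR adjusted p = 0.0282), a call held without CON-OLD-iBP 2 and lost without any one of the other 5 libraries (adjusted p = 0.0838 to 0.128, fold changes of -2.62 to -2.26). The part of cell makeup in the values of the 10 genes was not tested.

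The young untreated cells of the 2 mouse lines were also compared. In CON-YOUNG over YOUNG, 9 of the 10 genes had positive fold changes, with a median of 0.75 against -0.01 over all tested genes, and all 10 had groups that overlapped, where 23.1% of all tested genes did not. In pairs matched by replicate number alone, across the 2 lines, 7 of the 10, all but Myh11, Tpm1 and Des, were higher in CON-YOUNG in all 3, against 20.8% of all tested genes. Rgs5 had 2.02 ± 0.73 (5.11 ± 5.45 and 1.25 ± 0.37 CPM, SD, n = 3 each; edgeR adjusted p = 0.117); DESeq2 called it at 2.01 with an adjusted p of 0.0426, along with 12.8% of all genes, and edgeR called it without CON-YOUNG 3 at 2.52 with an adjusted p of 0.0154, along with 18% of all tested genes. With a term for library set the Rgs5 fold change was 0.13, but the 2 groups shared only set 3, through CON-YOUNG 3 (0.861 CPM) and YOUNG 3 (0.850 CPM). Myh11 was the gene with a negative value, -1.10 ± 1.08. None of the 10 was called by edgeR against 5.55% of all tested genes, and 1, Rgs5, had an unadjusted p under 0.05, against 23%. Within set 3, CON-YOUNG 3 exceeded YOUNG 3 for 9 of the 10 genes, and for 48% of all tested genes. Macrophage markers summed to 0.0196% to 0.0482% of counts in CON-YOUNG and 0.353% to 1.59% in YOUNG, and all 16 were called lower (median -5.24), though no gene at all was called with a replicate block; their part in the values of the 10 genes was not tested.

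Other genes of the contractile programme were read from lists chosen with earlier results of these data known. Of 18 further smooth muscle genes, 17 had negative fold changes in CKO-OLD over CKO-YOUNG (median -1.39), and 3 were called lower. Among these were Tgfb1i1, the coactivator Hic-5 of focal adhesions (128 ± 3.36 and 310 ± 42.7 CPM, SD, n = 3 each; -1.28, edgeR adjusted p = 0.0253), and Pdlim7, a LIM protein of actin filaments (141 ± 16.7 and 348 ± 69.1 CPM; -1.30, adjusted p = 0.036). No gene at all was called without any of CKO-OLD 1, 2 or 3 or CKO-YOUNG 1 or 2, so these 3 calls were lost there, with adjusted p of 0.0879 to 0.169; they were also lost with a term for library set and within set 3, and were kept without CKO-YOUNG 3. In CON-YOUNG over YOUNG, 17 of the 18 were positive and 4 were called higher, among them Tgfb1i1 (1.38, adjusted p = 0.0141), Pdlim7 (1.31, adjusted p = 0.0141) and Ppp1r12b (0.85, adjusted p = 0.0162). In this comparison, 0 of all tested genes were called with a replicate block, with a term for library set, or without YOUNG 1, CON-YOUNG 1 or CON-YOUNG 2. In the fit of its 6 libraries alone, 1 was called. The set term cannot decide about the 2 lines, since YOUNG and CON-YOUNG shared only set 3. No gene of the list was called in the other 5 comparisons; the smallest p was that of Pln in OLD over YOUNG, where it was listed at 0 CPM in every YOUNG library, of Smtn in CON-OLD-iBP over OLD (1.61, adjusted p = 0.0796) and of Ppp1r14a in the other 3. Ppp1r14a, which encodes the myosin phosphatase inhibitor CPI-17, had the same signs as Mcam: 1.67 in CKO-YOUNG over CON-YOUNG, 2.89 in CKO-OLD over OLD and -2.43 in CON-OLD-iBP over CKO-OLD (adjusted p = 0.729, 0.277 and 0.0827).

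Of 20 genes for serum response factor, its partners and targets, all were tested. In CKO-OLD over CKO-YOUNG, 14 were negative (median -0.57) and none was called; Fhl1, a LIM protein, had the smallest p (-2.58, edgeR adjusted p = 0.062). Srf itself was called higher in CON-YOUNG over YOUNG (178 ± 48.8 and 77.5 ± 9.07 CPM, SD, n = 3 each; 1.2, adjusted p = 0.0186), the single call of this list in the 7 comparisons. The smallest p elsewhere belonged to Ccn2, Myocd, Elk1, Actg1 and Elk3. Another list held 16 actin, calponin, tropomyosin and myosin relatives, most of them non-muscle forms. Of these, Actb, Actg1, Cnn2 and Tpm4 are also in the serum response factor list and Tpm2 in the smooth muscle list. In CKO-OLD over CKO-YOUNG, 12 of the 16 were negative (median -0.54). The smallest p was that of Myh10, a non-muscle myosin heavy chain (-1.43, edgeR adjusted p = 0.0556). Myh10 was called higher in CON-YOUNG over YOUNG (1.39, adjusted p = 0.0266, and 0.0607 and 0.0705 without YOUNG 2 and YOUNG 3), again the single call of its list; elsewhere the smallest p belonged to Actg1, Myl12a, Acta1 and Tpm3.

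Of 15 further pericyte genes, 14 were tested, and their pattern was mixed. In CKO-OLD over CKO-YOUNG, 9 were negative and 5 positive (median -0.52), and Anpep, an aminopeptidase also made by myeloid cells, was called higher (76.8 ± 34.7 and 12.0 ± 2.88 CPM, SD, n = 3 each; 2.68, edgeR adjusted p = 0.0315). Anpep was called lower in CON-YOUNG over YOUNG (-2.85, adjusted p = 0.0141). Both Anpep calls were lost in the alternatives given above for Tgfb1i1, while the fold changes without single libraries stayed between 2.24 and 2.87 in CKO-OLD over CKO-YOUNG and between -3.25 and -2.64 in CON-YOUNG over YOUNG. The smallest p elsewhere belonged to Anpep, Gja4 and Kcnj8. In CKO-YOUNG over CON-YOUNG, 6 were positive and 8 negative, none was called, and Cspg4, which encodes the pericyte proteoglycan NG2, had the smallest p (9.91 ± 5.16 and 122 ± 174 CPM, SD, n = 3 each; -3.62, adjusted p = 0.484). In CKO-OLD over CKO-YOUNG and in CON-YOUNG over YOUNG, Anpep and the macrophage sums given above differed in the same direction. The macrophage sums were 0.0514% to 0.102% of counts in CON-OLD-iBP, and 0.017%, 0.0143% and 0.104% in CKO-YOUNG 1, 2 and 3. Anpep was 53.0 ± 20.9 CPM in CON-OLD-iBP and 12.0 ± 2.88 CPM in CKO-YOUNG (SD, n = 3 each). No relation between Anpep and the sums was computed, and the part of those cells in the Anpep values was not tested.

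The 10 genes were compared with one another by Spearman correlation of log2 CPM over the 18 libraries, which share groups, sets and depth, so the values are a description. The 45 pairs lay between 0.335 and 0.963, with a median of 0.80. Tagln and Cnn1 (0.963), Tagln and Actg2 (0.955) and Acta2 and Tagln (0.932) were closest, and Mcam was closest to Myl9 (0.922). The 9 pairs with Rgs5 lay between 0.335 with Myh11 and 0.692 with Tpm1, and for every gene but Tpm1 it was the least close partner. Over the 10 libraries of set 3 the median was 0.588 and the pairs lay between -0.16 and 0.927.

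**Figure D4:**
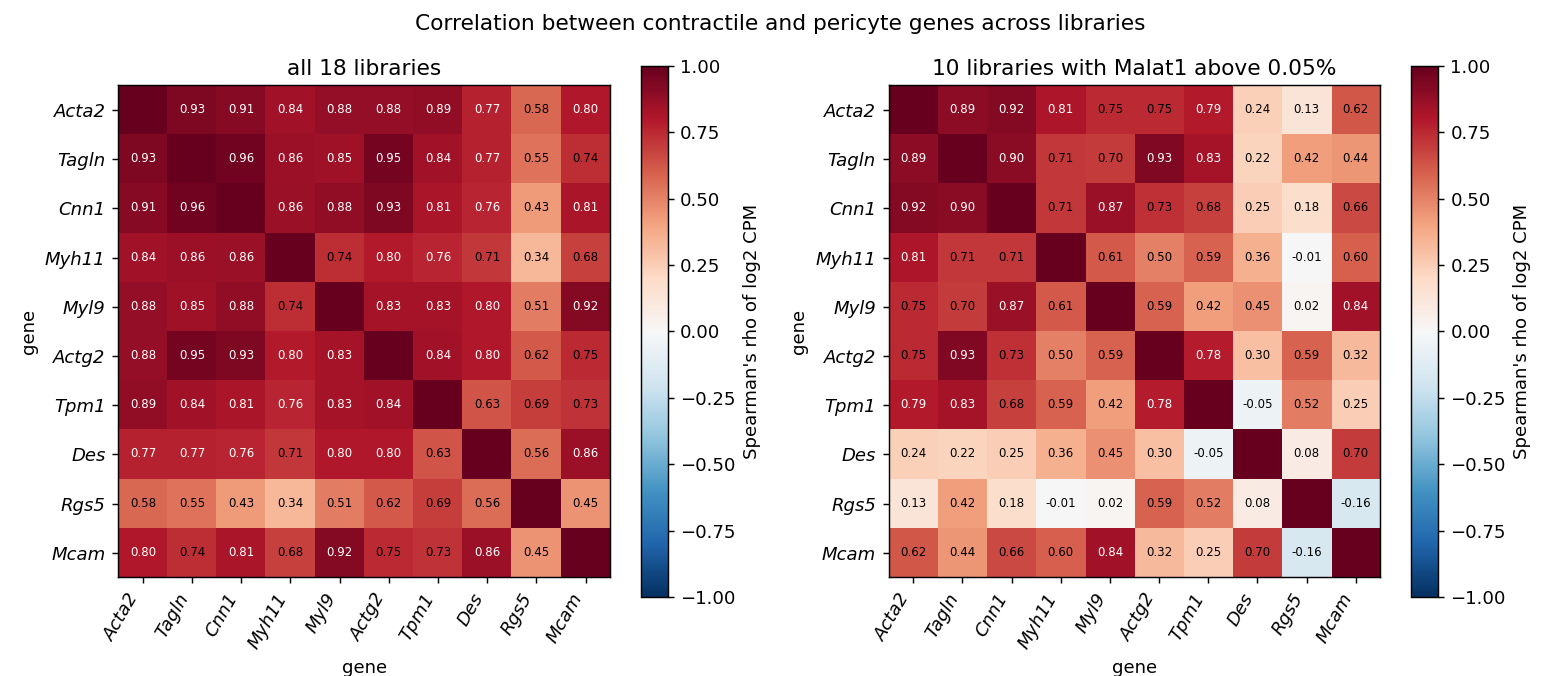
Spearman correlation of log2 CPM between each pair of the 10 genes, over all 18 libraries on the left and over the 10 libraries with Malat1 above 0.05% of counts on the right; the colour scale spans -1 to 1. Tagln, Cnn1, Acta2 and Actg2 form the darkest block on the left (Tagln and Cnn1 at 0.963), and the Rgs5 row is pale in both panels.

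Among 15162 other tested genes, the 5 whose levels followed Acta2 most closely over the 18 libraries were Ldb3 (0.975), Anxa6 (0.959), Filip1l (0.953), Tab2 (0.946) and Kcnmb1 (0.942). Ldb3 encodes a Z-disc protein of striated muscle and Kcnmb1 a subunit of the smooth muscle BK channel. For Myh11 the nearest were Mrvi1 (0.92), Senp3 (0.911), Snx6 (0.891), Asb2 (0.889) and Ddx3x (0.889). For Rgs5 they included Appl1 (0.907), Chuk (0.889), Ccnyl1 (0.88) and Col6a4 (0.874). None of the 3 sets of nearest genes shared a member with another. These genes were picked over 18 libraries that include set 3, so their values there are no separate check. Over set 3 alone the Acta2 neighbours lay between 0.855 and 0.939, those of Rgs5 between 0.758 and 0.879, and those of Myh11 between 0.612 and 0.927.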

How the data were processed

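The authors deposited whole-number read counts per gene symbol for the 18 RNA libraries, with no normalization seen in the values. The submitters' processing notes name HISAT2, Trim Galore, FastQC and the mm39 build, without versions; RNA came from cultured cells, per the labels' protocols. Counting program, annotation and strand setting were not given in the sources. Samples were grouped by title. The 10 genes, the lists and the comparisons were chosen with earlier results of these data known.

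Genes were kept with filterByExpr (minimum count 10, minimum total 15), TMM-scaled, and compared by the quasi-likelihood F test in edgeR (robust, 6 group coefficients over 18 libraries, 12 residual degrees of freedom, threshold 0.05, two-sided); standard errors are the fold change over the square root of F and so approximate. The biological coefficient of variation was 51.9%. A floor of 3 counts covers counting error only. Tests were run on simulated data first. All 10 genes are named; from each list every gene past the threshold is named, at most 4 per comparison, or else the gene of smallest p, with some named by symbol alone and some not reported here; nearest genes are the 5 of highest Spearman correlation over 18 libraries (log2 CPM, prior count 2). Alternatives were DESeq2 (shares over genes given an adjusted p), RLE size factors, no low-count filter, fits of 2 groups with and without a replicate block, a term for library set, set 3 alone (Malat1 above 0.05%) and leaving out each library. The within-set counts, the counts over pairs of equal number and the comparison over both ages were added after the values were seen.

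Replicate numbers come from the titles. For CKO-YOUNG against CON-YOUNG, departures from the group mean correlated between libraries of equal number (r = 0.193, 0.237 and 0.305). They also did for CON-YOUNG against YOUNG (r = 0.146, 0.245 and 0.31). Libraries of equal number were therefore also counted in pairs for these comparisons. The main test had no pairing, and the replicate block was an alternative fit. The other comparisons did not reach 0.1 in every pair. In CKO-YOUNG, CON-YOUNG and YOUNG only library 3 was in set 3, so number and library set cannot be told apart. These correlations do not show that libraries of equal number share an animal or culture. Tools were Python 3.11.15, pandas 2.3.3, matplotlib 3.10.9, R 4.3.3, DESeq2 1.42.0, limma 3.58.1 and edgeR 4.0.16. Promoters are from RefSeq.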

Additional observations from a re-analysis of the deposited data

How the results depend on the processing

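The count of the 10 genes called was 0 in edgeR for each comparison and stayed 0 in OLD against YOUNG, CKO-YOUNG against CON-YOUNG, CKO-OLD against OLD and the difference of age effects under every alternative run. In CKO-OLD against CKO-YOUNG it was 6 with DESeq2, 8 in the fit of the 6 libraries alone and 6 in that fit with a replicate block, 0 with RLE size factors, no low-count filter, a library set term or set 3 alone, and 0 to 6 when leaving out each library, the 6 without CKO-YOUNG 3. The share of all genes called there was 0.7% in edgeR, 12.7% with DESeq2, 4.35% in the fit of the 6 libraries alone, 1.65% with the block and 16.2% without CKO-YOUNG 3. DESeq2 called 1 gene, Rgs5, in CON-OLD-iBP against OLD and in CON-YOUNG against YOUNG. Leaving out each library gave 0 to 1 in CON-OLD-iBP against CKO-OLD, the 1 being Mcam without CON-OLD-iBP 2, and 0 to 1 in CON-YOUNG against YOUNG, the 1 being Rgs5 without CON-YOUNG 3. The replicate block changed no other count of these genes. In CKO-OLD against CKO-YOUNG, the correlation between libraries of equal number did not reach 0.1 in every pair. Tgfb1i1 and Pdlim7 had edgeR adjusted p of 0.0551 and 0.0521 there with the block. The cause of these changes was not tested. With 3 libraries a group and a coefficient of variation of 51.9%, Des, Myh11, Rgs5 and Mcam stood at under 30 CPM in most libraries, and Des and Mcam at 0 in CON-OLD-iBP 3 are limited by a floor of 0.0608 CPM.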
